A study of Mus musculus with 4 samples.

Results

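The 8 genes described here supply acetyl-CoA or move it, and the fatty acyl groups it comes from, across membranes: *Acly*, *Acss1*, *Acss2*, *Cpt1a*, *Cpt2*, *Slc25a1*, *Crat* and *Slc33a1*. They were taken by name from a table of 20197 mouse genes, and all 8 had a row in it. The samples were 4T1 cells, a wild-type mouse mammary tumor line, stained with MitoSpy Red at 20 nM, a dye that gathers in mitochondria with a high mitochondrial membrane potential (MMP). The brightest 5% were sorted as high MMP cells and the dimmest 5% as low MMP cells, 100000 cells per sample. There were 2 libraries of each group, with no unsorted control. The study counts them as independent experiments, while the labels do not say which libraries were sorted together. No other treatment separated the groups, and all cells came from a single line kept in DMEM with serum.

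Acetyl-CoA is made in mitochondria from pyruvate and from fatty acids, but it cannot cross the inner membrane itself. Carbon leaves as citrate, which is split again in the cytosol, or as acetylcarnitine, and long-chain fatty acids enter as acylcarnitines. Outside mitochondria, acetyl-CoA feeds fatty acid and sterol synthesis and is the acetyl donor for histones, and the study asked how its generation bears on tumor cells that seed metastases, which it enriched by sorting for high MMP. The comparison here asks whether the genes of this supply are expressed at other levels in the high than in the low MMP cells.

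The libraries held 22591970 to 26395015 reads assigned to genes, and values are normalized reads, scaled by the authors so that each library sums to 20000000. The epithelial markers were abundant (6 of 6 present, summed level 37049 to 49486 in high and 42904 to 49056 in low MMP libraries). Markers of leukocytes (3 of 7 analysed here) summed to 60.6 to 143 in high and 96.5 to 151 in low MMP libraries. Almost all of it was *Cd68* (59.9 and 139 in high MMP 1 and 2, 149 and 91.2 in low MMP 1 and 2). *Ptprc* was at 0 to 1.77 and *Cd79a* at 0 to 3.54. Markers of endothelial cells (2 of 4 analysed here) were low, at 3.35 to 6.06 in high and 1.74 to 6.20 in low MMP libraries. Those of fibroblasts (4 of 6 analysed here) summed to 337 to 375 in high and 548 to 606 in low MMP libraries, almost all of it *Pdgfra*, with the collagen gene *Col1a2* at 0 to 3.03. Of 12 G2/M-phase genes, 10 had an unadjusted limma p under 0.05 and a higher level in high MMP cells (summed level 92288 to 96323 against 51180 to 54875). Of 12 S-phase genes, 7 had one and a lower level (40803 to 54200 against 63832 to 65925). Of all 20197 genes, 798 had such a p and a higher level in high MMP cells, and 1213 a lower one. The part of these shifts in the values below was not tested, and in sorted bulk samples fewer cells of a kind and less RNA per cell cannot be told apart.

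None of the 8 genes passed the test between high and low MMP cells. The limma test, run on log2(normalized reads + 1) over all genes, called 0 of 8 at an adjusted p under 0.05, and 0 of 20197 genes (0%), with a smallest adjusted p of 0.472. At an unadjusted p under 0.05 it was again 0 of 8 members, against 9.96% of all genes. Of the 7 members with a mean of at least 1, 6 were lower and 1 was higher in high MMP cells, with a median difference of -0.08, where the median was -0.04 over the 17694 genes that reached such a mean. Rescaling the libraries brought the members' median to -0.043 (TMM) or -0.039 (median of ratios). It also raised the median of those 17694 genes, by 0.037 (TMM) or 0.040 (median of ratios), so members and all genes moved alike. The groups did not overlap for 2 of the 8, *Acss2* and *Slc33a1*, both lower in high MMP cells, a pattern that 24.5% of all genes had.

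**Figure D1:**
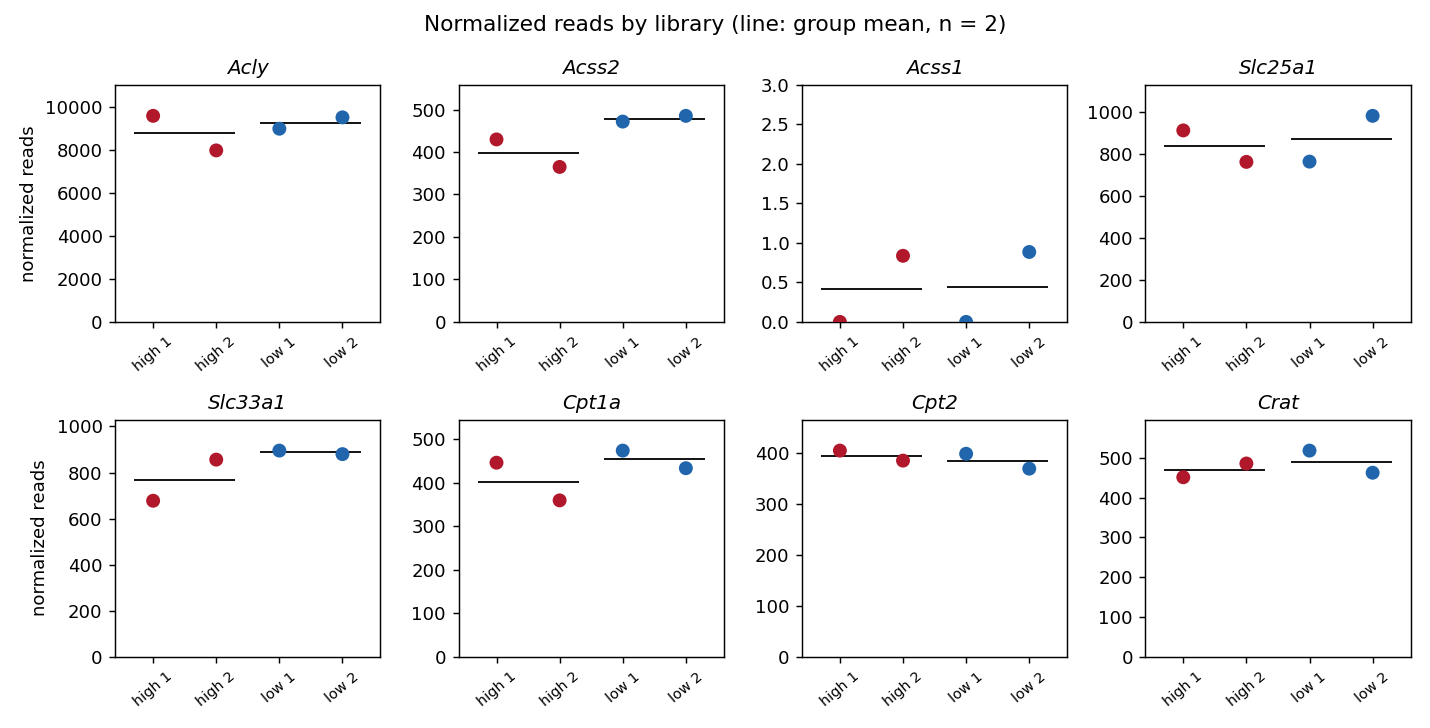
Normalized reads (vertical axes, from 0) of the 8 genes in the 4 libraries, with high MMP in red, low MMP in blue and a line at each group's mean (n = 2). The high MMP points lie below both low MMP points for *Acss2* and *Slc33a1* only, and *Acss1* stays under 1 normalized read.

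Among the enzymes that make acetyl-CoA in the cytosol and nucleus, *Acly* and *Acss2* were expressed and *Acss1*, the mitochondrial acetate enzyme, was nearly silent. *Acly* (ENSMUSG00000020917, GRCm38 chromosome 11, 100476353 to 100528000, minus strand) encodes ATP citrate lyase, which splits exported citrate into acetyl-CoA and oxaloacetate. It had 9602 and 7992 normalized reads in high MMP 1 and 2, and 9002 and 9531 in low MMP 1 and 2. The low MMP values lay inside the range of the high MMP values. The means were 8797 ± 1139 and 9266 ± 374 (SD, n = 2 each), and the log2 difference was -0.08 (SE 0.13, limma adjusted p 0.925). The 95% interval put the high MMP level between 74.0% and 121% of the low MMP level. Counting error alone gives this difference an SE of 0.01, on 9550 to 12672 reads per library, so depth did not set its precision.

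*Acss2* (ENSMUSG00000027605, chromosome 2, 155517948 to 155585724, plus strand), the cytosolic and nuclear enzyme that turns acetate into acetyl-CoA, showed the largest difference of the 7 measured members. Its values were 430 and 365 in high MMP 1 and 2, and 472 and 485 in low MMP 1 and 2. Both high MMP libraries were below both low MMP libraries, though the gap between high MMP 1 and low MMP 1 was smaller than that between the high MMP libraries. The means were 397 ± 45.8 and 478 ± 9.55 (SD, n = 2 each), and the log2 difference was -0.27 (SE 0.12, unadjusted p 0.0763, adjusted p 0.573, limma). The interval was 66.5% to 103% of the low MMP level. Counting error alone, on 436 to 567 reads per library, gives this difference an SE of 0.06.

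*Acss2* also overlaps other genes on the opposite strand. Of its 10163 annotated exon bases, 395 lie in exons of *Gss*, which makes glutathione and had 325 to 416 normalized reads. Exons of *Ggt7*, which had 4.55 to 27.9 normalized reads, hold 197. Those of the antisense gene *Acss2os*, which was not among the 20197 genes, hold 335. Whether the counting used the strand is not stated, so reads from these stretches cannot be assigned with certainty.

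*Acss1* (ENSMUSG00000027452, chromosome 2, 150618105 to 150668500, minus strand), which activates acetate inside mitochondria, was hit by 0 reads in high MMP 1 and low MMP 1 and by 1 read in high MMP 2 and low MMP 2. All 4 lie under the limit of 3 reads that a count of 0 allows (2.27 to 2.66 normalized reads). A difference was therefore not detectable at this depth.

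The citrate carrier was high in 1 library of each group and low in the other. *Slc25a1* (ENSMUSG00000003528, chromosome 16, 17925223 to 17928219, minus strand) encodes the carrier that exports citrate from the mitochondrial matrix, the step before *Acly*. It had 912 and 762 normalized reads in high MMP 1 and 2, and 764 and 982 in low MMP 1 and 2. High MMP 1 and low MMP 2 were thus the high pair, and high MMP 2 and low MMP 1 the low pair. The group means were 837 ± 106 and 873 ± 154 (SD, n = 2 each), and the log2 difference was -0.05 (SE 0.17, limma adjusted p 0.973). The difference was 0.26 between the libraries numbered 1 and -0.36 between those numbered 2, so the same-numbered libraries gave opposite signs.

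*Acly* leaned the same way, with 0.09 between the libraries numbered 1 and -0.25 between those numbered 2. Genes of other pathways set the same libraries apart, and the 2 given here were picked after their values were seen. The sterol synthesis gene *Hmgcs1* had 3768 normalized reads in high MMP 1 and 4507 in low MMP 2, against 2264 in high MMP 2 and 2712 in low MMP 1. The immediate-early gene *Fos* had 2419 and 2357 against 521 and 326 in the same order. What separates these libraries is not given by the labels, and its part in the values of *Slc25a1* and *Acly* was not tested.

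**Figure D2:**
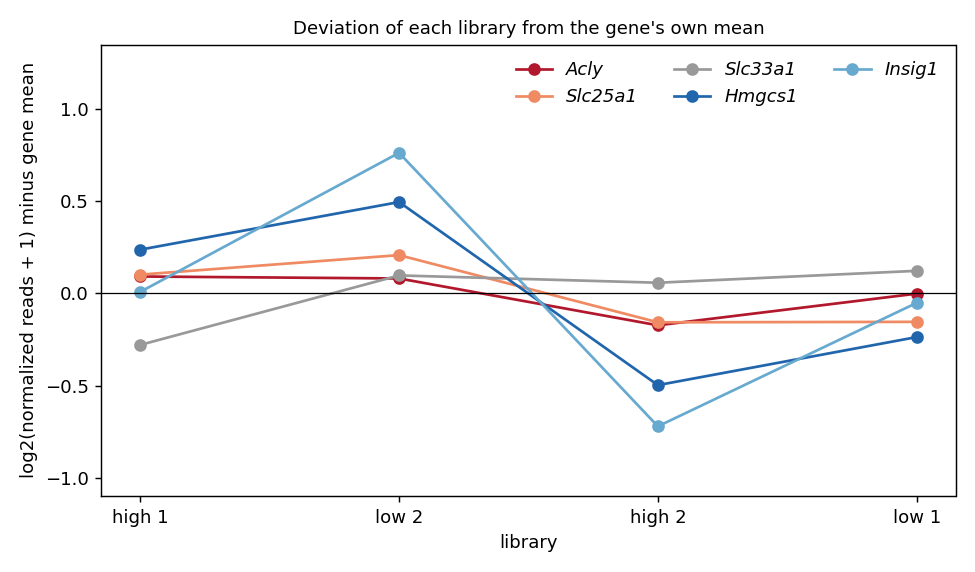
Deviation of each library from the gene's own mean, as log2(normalized reads + 1), with the libraries ordered as high 1, low 2, high 2 and low 1, and points joined only to guide the eye. *Acly*, *Slc25a1*, *Hmgcs1* and *Insig1* are at or above their means in high 1 and low 2. They are at or below them in the other libraries, whereas *Slc33a1* is below its mean only in high 1. *Insig1*, a feedback regulator of sterol synthesis, was, like *Hmgcs1*, picked after its values were seen.

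The DNA just before the start sites is shown for the genes of the citrate route, *Acly* and *Slc25a1*, and for *Acss2*, since *Acly* and *Slc25a1* shared this order of libraries. The sequences are those of RefSeq on GRCm38.p6, from the C57BL/6J strain, and 7 of the 8 members had an entry. Each is read 5′ to 3′ on the strand of its gene and ends at the base before the start, except that the one for *Acss2* leaves out bases inside annotated exons. Capitals mark matches on either strand to the E-box CACGTG, to the CCAAT box and to the GC box GGGCGG, none of which overlap.
Acly, chr11:100528001-100528250, minus strand: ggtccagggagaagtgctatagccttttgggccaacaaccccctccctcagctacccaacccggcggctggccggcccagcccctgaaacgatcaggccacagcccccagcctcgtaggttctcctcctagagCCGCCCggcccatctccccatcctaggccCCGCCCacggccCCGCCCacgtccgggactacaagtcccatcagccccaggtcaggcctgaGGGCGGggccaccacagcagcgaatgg
Slc25a1, chr16:17928220-17928469, minus strand: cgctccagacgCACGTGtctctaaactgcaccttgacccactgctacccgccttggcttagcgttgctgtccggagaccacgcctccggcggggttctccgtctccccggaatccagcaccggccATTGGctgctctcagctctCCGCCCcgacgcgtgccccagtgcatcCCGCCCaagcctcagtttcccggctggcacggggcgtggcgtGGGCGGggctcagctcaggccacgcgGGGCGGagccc
Acss2, chr2:155517793-155517947, plus strand: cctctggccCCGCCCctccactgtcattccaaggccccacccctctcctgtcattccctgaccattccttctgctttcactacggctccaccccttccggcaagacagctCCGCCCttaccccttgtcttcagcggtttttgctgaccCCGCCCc
GC boxes were found 4 times before *Acly*, 4 times before *Slc25a1* and 3 times in the 155 bases of *Acss2*. A GC box occurs in 32.7% of all 32851 promoters over 250 bases and in 17.4% over the 155 bases that match the *Acss2* window. *Slc25a1* also held 1 E-box, present in 6.02% of promoters, and 1 CCAAT box, present in 33.8%. The sterol element TCACNCCAC, found in 1.05% of promoters, had no match in these 3 windows, which says only that these letters are not there.

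The second carrier, *Slc33a1* (ENSMUSG00000027822, chromosome 3, 63933507 to 63964768, minus strand), brings acetyl-CoA from the cytosol into the endoplasmic reticulum. It had 677 and 856 normalized reads in high MMP 1 and 2, and 895 and 880 in low MMP 1 and 2. The groups did not overlap, but high MMP 2 lay close to the low MMP libraries and high MMP 1 stood apart from the other 3. The means were 767 ± 126 and 888 ± 10.9 (SD, n = 2 each), and the log2 difference was -0.22 (SE 0.14, limma adjusted p 0.712), with an interval of 66.2% to 111% of the low MMP level. Without high MMP 1 the difference was -0.05, and without high MMP 2 it was -0.39. Of its 3548 exon bases, 1136 are shared with the antisense gene *Gm26850*, which had 0.885 to 12.1 normalized reads.

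The high and low MMP values of all 3 carnitine acyltransferases overlapped, which with 2 libraries per group does not show equal levels. Of all 20197 genes, 2723 were higher and 4940 lower in high MMP cells with no overlap, and the rest overlapped. *Cpt1a* (ENSMUSG00000024900, chromosome 19, 3322334 to 3385733, plus strand), which couples long-chain acyl groups to carnitine at the outer mitochondrial membrane and is the rate-limiting step of their oxidation, had 446 and 359 normalized reads in high MMP 1 and 2. It had 473 and 433 in low MMP 1 and 2, so high MMP 1 lay between the low MMP libraries. The means were 402 ± 61.2 and 453 ± 28.6 (SD, n = 2 each), and the log2 difference was -0.18 (SE 0.14, limma adjusted p 0.788; interval 67.5% to 116% of the low MMP level). It was -0.33 without high MMP 1 and -0.02 without high MMP 2, so its size rested on high MMP 2.

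*Cpt2* (ENSMUSG00000028607, chromosome 4, 107903981 to 107923610, minus strand), which returns the acyl group to CoA inside the matrix, was the steadiest member. It had 405 and 385 normalized reads in high MMP 1 and 2, and 398 and 369 in low MMP 1 and 2, and the groups overlapped. The means were 395 ± 13.9 and 384 ± 20.7 (SD, n = 2 each), and the log2 difference was 0.04 (SE 0.10, limma adjusted p 0.959; interval 85.8% to 123%). *Crat* (ENSMUSG00000026853, chromosome 2, 30400471 to 30415813, minus strand), which exchanges acetyl groups between CoA and carnitine, had 452 and 486 in high MMP 1 and 2, and 519 and 463 in low MMP 1 and 2. High MMP 2 lay between the low MMP libraries, and the log2 difference was -0.06 (SE 0.10, limma adjusted p 0.926, interval 78.4% to 117%). Of the 5388 exon bases of *Crat*, 411 are shared with the antisense gene *Gm16323*, which was not among the 20197 genes. Another 59 are shared with *Dolpp1* on the opposite strand, which had 242 to 297 normalized reads.

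Set side by side per length of mRNA, the 8 genes spanned a wide range of levels. *Acly* had 1819 to 2186 normalized reads per kb over the 4 libraries, more than 95.2% of the 13718 genes with a principal transcript length. *Slc25a1* followed with 458 to 589 per kb and *Slc33a1* with 215 to 284. *Cpt2* (156 to 171 per kb) and *Acss2* (124 to 166) overlapped, as did *Crat* (107 to 123) and *Cpt1a* (83.2 to 110), and these 4 were near the middle of all genes (41.0% to 50.8% of genes were lower). *Acss1* was last, at 0 to 0.245 per kb, under its own limit of 0.628 to 0.734. The order of *Acly*, *Slc25a1* and *Slc33a1* was the same in all 4 libraries, since their ranges did not overlap.

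**Figure D3:**
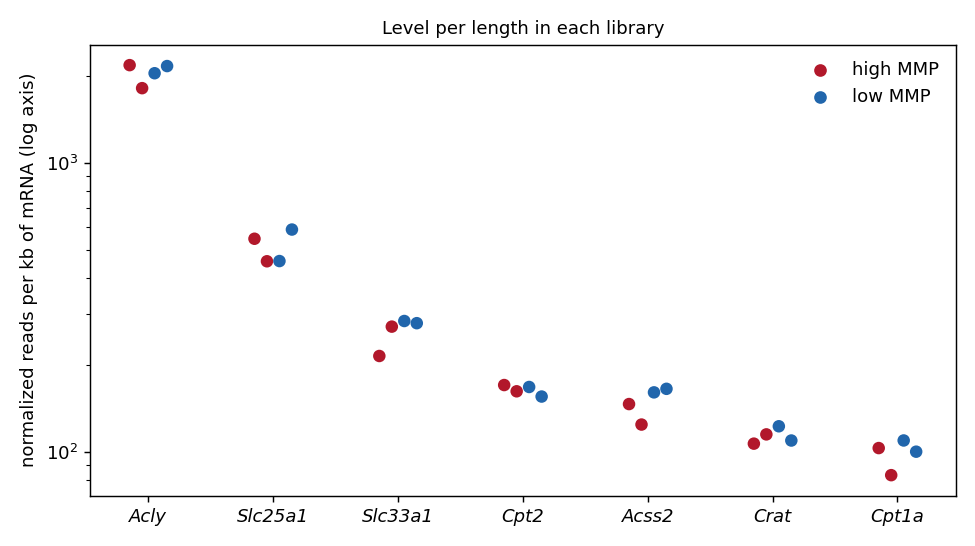
Level of the 7 measured genes as normalized reads per kb of mRNA on a log axis, with 1 point per library, high MMP in red and low MMP in blue. *Acly* lies above 1819 in every library, while *Cpt2*, *Acss2*, *Crat* and *Cpt1a* lie between 83.2 and 171.

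Ratios taken inside a library do not depend on how libraries were scaled, so all 21 ratios between the 7 measured members were compared. The groups did not overlap for 5 of the 21 (23.8%), against 39.4% of all gene pairs in which both genes averaged 100 or more. *Acss2* was in 3 of the 5. The ratio of *Acly* to *Acss2*, the citrate and the acetate route to cytosolic acetyl-CoA, was 22.3 and 21.9 in high MMP 1 and 2, and 19.1 and 19.6 in low MMP 1 and 2. Both high MMP values were above both low MMP values, with a log2 difference of 0.19. The ratio of *Acss2* to *Cpt2* was 1.06 and 0.948 against 1.18 and 1.31, and that of *Cpt1a* to *Cpt2* was 1.10 and 0.933 against 1.19 and 1.17. With 2 libraries per group, the exact two-sided permutation test cannot give a p below 0.333, which all 5 had, and the share of such ratios was not above that of other genes.

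**Figure D4:**
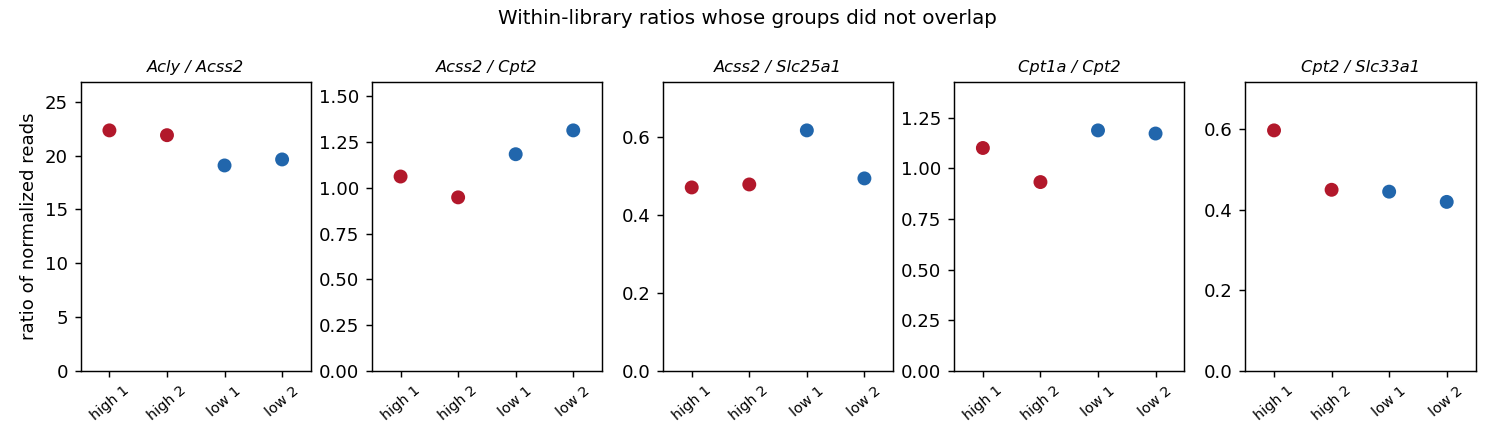
Ratio of normalized reads of 2 member genes inside each library (vertical axes, from 0), for the 5 of 21 ratios whose groups did not overlap. The ratio of *Acly* to *Acss2* sits at 21.9 and 22.3 in high MMP and at 19.1 and 19.6 in low MMP libraries.

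The genes around the members were described from lists of 84 genes in 8 groups, of which 72 were analysed here. In the limma test 0 of 72 passed an adjusted p of 0.05, and 6 (8.33%) had an unadjusted p under 0.05, close to the 9.96% of all genes. In the list of pyruvate entry and the pyruvate dehydrogenase complex, 1 of 14 had an unadjusted p under 0.05. This was *Pdk1*, a kinase that switches pyruvate dehydrogenase off, with 530 and 395 normalized reads in high MMP 1 and 2, and 725 and 819 in low MMP 1 and 2. High MMP libraries were below low MMP libraries by more than the spread within either group, with a log2 difference of -0.75 (SE 0.18, limma adjusted p 0.472). Once replicate number entered as a block, the limma adjusted p was 0.798. On the recovered reads, edgeR gave an adjusted p of 0.0317 with that block and 0.689 with no block, and DESeq2 gave 0.0501.

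Among 8 genes of acetate entry and acyl-CoA hydrolysis, 2 had an unadjusted p under 0.05, against 9.96% of all genes. *Slc16a1*, a carrier of lactate, pyruvate and other monocarboxylates including acetate, had 3920 and 4108 normalized reads in high MMP 1 and 2, and 4934 and 5222 in low MMP 1 and 2. Its log2 difference was -0.34 (SE 0.09, limma adjusted p 0.472). The groups did not overlap, a pattern that 24.5% of all genes had in this direction. *Slc5a8*, another monocarboxylate carrier, was named after its values were seen, on 8 and 9 reads in high MMP 1 and 2 and on 0 and 3 reads in low MMP 1 and 2, with a limma adjusted p of 0.491. In the list of long-chain acyl-CoA activation, which feeds *Cpt1a*, 1 of 8 had an unadjusted p under 0.05. *Acsl3*, an acyl-CoA synthetase of lipid droplets and endoplasmic reticulum, had 1304 and 1631 in high and 2001 and 2019 in low MMP libraries 1 and 2, a log2 difference of -0.46 (SE 0.13, limma adjusted p 0.472).

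In the list of carnitine uptake, synthesis and shuttle, 0 of 8 had an unadjusted p under 0.05, against 9.96% of all genes. *Slc25a20*, which carries acylcarnitines across the inner membrane between the steps of *Cpt1a* and *Cpt2*, had 296 and 287 normalized reads in high MMP 1 and 2, and 282 and 290 in low MMP 1 and 2. Its log2 difference was 0.02 (SE 0.09, limma adjusted p 0.988). The citrate list had 0 of 11, against the same 9.96%, and lists this short do not set it apart from all genes. *Cs*, citrate synthase, had 9862 and 8007 in high and 8388 and 8669 in low MMP libraries 1 and 2, a log2 difference of 0.06 (SE 0.14, adjusted p 0.958).

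Of 7 regulators analysed, 1 had an unadjusted p under 0.05, against 9.96% of all genes. *Srebf1*, a transcription factor of lipid synthesis known to drive *Acly* and *Acss2*, had 1541 and 2154 normalized reads in high MMP 1 and 2, and 2797 and 3016 in low MMP 1 and 2. Its groups did not overlap, a pattern that 24.5% of all genes had in this direction. The log2 difference of *Srebf1* was -0.67 (SE 0.18, limma adjusted p 0.472). *Srebf2*, its relative for sterol synthesis, had 3145 and 3753 in high and 3685 and 3871 in low MMP libraries 1 and 2, which overlap, with a difference of -0.14 (SE 0.12, adjusted p 0.807).

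**Figure D5:**
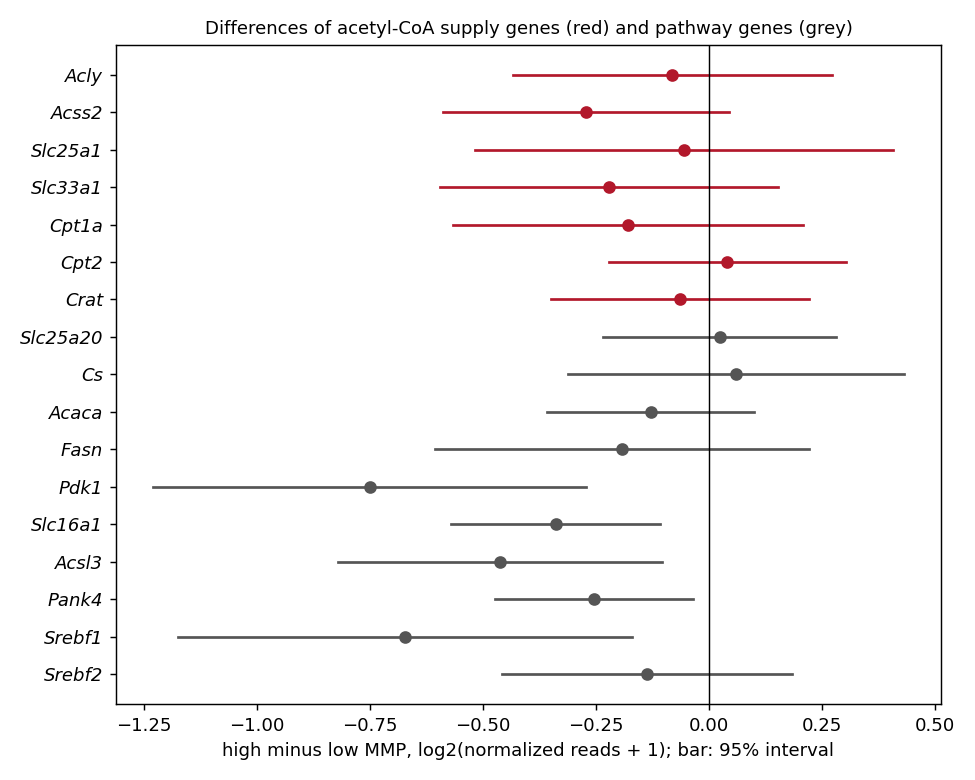
High minus low MMP difference on the log2(normalized reads + 1) scale (horizontal axis; point and 95% interval of the limma fit, 2 libraries per group) for the 7 measured members in red and 10 named pathway genes in grey. The 7 red intervals include 0, with *Acss2* farthest from it at -0.27. The 5 grey intervals that do not are those of *Pdk1*, *Slc16a1*, *Acsl3*, *Pank4* and *Srebf1*. All but *Srebf1* were shown because of an unadjusted p under 0.05 in this same fit, so their intervals leave out 0 by choice. Of the 72 pathway genes analysed, 6 (8.33%) had such a p, against 9.96% of all genes.

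To show which pathway genes had library profiles most like the members, each gene's 4 log2 values were centred on their own mean and compared by root mean square difference over the 4 libraries. Among 68 other member and pathway genes that averaged 100 or more, the closest to *Acly* was *Aco1*, the cytosolic aconitase (0.025), and 87 of the 9998 genes at such levels were as close. The closest to *Slc25a1* was *Slc25a10*, the dicarboxylate carrier (0.0691, 148 genes as close). *Acss2* was closest to *Fasn*, fatty acid synthase (0.0548, 106 genes as close), and *Cpt1a* to *Acss2* (0.0806, 227 genes). *Slc33a1* was closest to *Scap*, the escort of SREBP proteins (0.0528, 329 genes), *Cpt2* to the acyl-CoA synthetase gene *Acsl5* (0.0267, 96 genes) and *Crat* to the pyruvate dehydrogenase phosphatase gene *Pdp1* (0.0376, 209 genes). With 4 libraries, many genes were as close as these.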

How the data were processed

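RNA-sequencing of 4 libraries (200 ng RNA each, stranded mRNA preparation) was analysed. Per the labels and the study's methods, the authors scaled the counts to library size and filtered out genes seldom detected. All 20197 genes here were above 0 in at least 2 of 4 libraries. The submitters' processing notes name STAR, HTSeq and the build GRCm38 (mm10). Versions, annotation, strand setting and handling of multi-mapped reads are not given in the sources used here. The deposited values are a signal per gene that sums to 20000000 per library. All values were whole multiples of 1 step (0.758 to 0.885, tolerance 0.02 reads), so whole reads were recovered for 100.0% of values.

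Identifiers were matched to GENCODE M21 on GRCm38 (19993 of 20197). Levels per kb used the longest APPRIS principal transcript. log2(value + 1) was fitted with limma 3.58.1 in R 4.3.3 (eBayes with trend, no block) over all genes, two-sided, with Benjamini-Hochberg adjustment. Alternatives were pseudocounts, filters, rescaling, no trend, blocks, leaving out each library, and, on the recovered reads, DESeq2 1.42.0 and the quasi-likelihood test of edgeR 4.0.16. Fits were tested on simulated data. Limits from counts cover counting error only. Members, lists and tests were chosen with earlier results of these data known. Named were the 8 members, up to 3 genes per direction and list with an unadjusted p under 0.05 and a mean of at least 10, *Slc25a20*, *Srebf1*, *Srebf2*, *Acaca*, *Fasn* and *Cs*, and each member's closest profile. The log2 scale understates changes of low genes.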

Additional observations from a re-analysis of the deposited data

How the results depend on the processing

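The 0 members at an adjusted p under 0.05 stayed 0 under the 17 alternatives (14 for *Acss1*, which low-level filters and DESeq2 leave without a value), where the lowest adjusted p was 0.265 (*Slc33a1* without high MMP 2). At an unadjusted p under 0.05, 1 member passed with the crossed block in limma, added after seeing the data, and 0 to 1 when single libraries were left out (*Acss2* without high MMP 1, *Slc33a1* without high MMP 2). The median member difference ranged from -0.18 to -0.023 over the libraries left out (without high MMP 1 and without high MMP 2), and it was -0.033 in DESeq2, -0.037 in edgeR with no block and -0.043 with the replicate block. Where a library was left out, the remaining one of its group was assumed to vary like the other group. Directions reversed only then, with ranges of -0.21 (without high MMP 1) to 0.052 (without high MMP 2) for *Acly*, -0.24 (without low MMP 1) to 0.13 (without low MMP 2) for *Slc25a1*, which was 0.075 without high MMP 2, -0.014 (without low MMP 2) to 0.096 (without low MMP 1) for *Cpt2*, -0.15 (without low MMP 2) to 0.017 (without low MMP 1) for *Crat*, -0.091 (without high MMP 1) to 0.21 (without high MMP 2) for *Cs*, and -0.48 (without low MMP 1) to 0.44 (without low MMP 2) for *Acss1*, which was 0.42 without high MMP 1. The cause was not tested.

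Samples with the same number deviated in opposite directions (r = -0.414 across 12902 genes with a mean of at least 10, which are not independent replicates), so the numbers were not taken as a pairing. With the replicate block, genes at an adjusted p under 0.05 were 0 in limma and 106 in edgeR, against 0 with no block in either (1423 at an unadjusted p under 0.05 in edgeR and 2011 in limma). Of the named genes, the replicate block changed the call of *Pdk1* in edgeR and no other. DESeq2 called 118 and edgeR with crossed numbers called 733. Among the 733 were *Pdk1*, *Acsl3* and *Srebf1*, which DESeq2 did not call. Genes at an unadjusted p under 0.05 were 1055 in limma with the replicate block, 918 in edgeR with it, 660 in DESeq2, 1059 with a mean of at least 10, and 897 to 3353 with single libraries left out. Pathway genes at an unadjusted p under 0.05 were 18 in edgeR and 13 in limma with crossed numbers, 2 with no trend, 9 with a mean of at least 1, and 1 to 14 with single libraries left out. Both rescalings (TMM and median of ratios) moved the median of all genes by 0.04.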

Other observations

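The genes that use acetyl-CoA in lipid synthesis were lower in high MMP cells in 7 of 7 cases by their differences (median -0.26), but 0 of 7 had an unadjusted p under 0.05 in the limma test, and 4 had groups that did not overlap. Of all 20197 genes, 9.96% had such a p and 24.5% were lower with no overlap. The median difference over the 17694 with a mean of at least 1 was -0.04. Whether the list differs from all genes was not tested. *Fasn*, fatty acid synthase, had 20405 and 16897 normalized reads in high MMP 1 and 2, and 20210 and 22270 in low MMP 1 and 2, a log2 difference of -0.19 (SE 0.15, limma adjusted p 0.788). *Acaca*, acetyl-CoA carboxylase, had 2567 and 2567 against 2932 and 2689, a difference of -0.13 (SE 0.08, adjusted p 0.732).

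Among 9 genes of coenzyme A synthesis and transport, 1 had an unadjusted p under 0.05, against 9.96% of all genes. *Pank4*, a pantothenate kinase relative that lacks kinase activity, had 794 and 777 normalized reads in high MMP 1 and 2, and 908 and 968 in low MMP 1 and 2, with no overlap and a log2 difference of -0.25 (SE 0.08, limma adjusted p 0.472). The list's median difference was -0.10, against -0.04 over those 17694 genes, and 4 of the 9 were lower in high MMP cells with no overlap, as were 24.5% of all genes. Nothing particular to the list was tested.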
